A study of Homo sapiens with 4 samples.

Results

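The 6 immunoglobulin and T cell receptor loci were examined in H3K9me2 maps of K562 cells, through all listed peaks that overlapped 6 fixed hg19 blocks. The blocks were IGH (immunoglobulin heavy chain, chr14:106030000-107290000), IGK (kappa light chain, chr2:89150000-90300000), IGL (lambda light chain, chr22:22380000-23270000), TRA/TRD (T cell receptor alpha and delta, chr14:22090000-23020000), TRB (beta, chr7:141990000-142520000) and TRG (gamma, chr7:38270000-38410000). They held 293 and 286 peaks in the CUX1 knockout libraries and 293 and 278 in the control libraries, which is 1150 of 1000000 listed peaks (0.115%). Over the 4 lists, IGL held 466 of them, TRB 221, TRA/TRD 185, IGH 143, IGK 73 and TRG 62.

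K562 is an established human myeloid leukemia line, labelled as bone marrow. The 2 knockout libraries came from cells given CRISPR guide gCUX1, against the homeodomain transcription factor CUX1, and the 2 control libraries from cells given guide gHPRT, against the purine salvage gene HPRT. No other treatment is labelled, and no label says whether the edited cells were a clone or a pool. The mark measured, H3K9me2, is dimethylation of histone H3 at lysine 9 and lies over broad silent chromatin. It was mapped by CUT&RUN, where a nuclease is guided to marked nucleosomes by an antibody and the DNA it frees is sequenced. The series title gives the question as loss of the mark in CUX1-deficient cells.

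Receptor loci hold arrays of V, D and J gene segments followed by constant regions, and developing B or T cells join segments of these arrays by RAG-dependent recombination to make an antibody or T cell receptor chain. In cells outside the lymphoid lineages these arrays are as a rule kept silent, and H3K9 methylation is among the marks known from closed receptor loci. The loci differ in layout. In RefSeq (GRCh38.p14, used for names and order alone), IGH holds 48 V segments, 27 D segments, 6 J segments and 9 constant regions, and TRA/TRD holds 62 J segments. TRG holds 6 V segments and is the shortest array, with 21 entries in all, pseudogenes included. IGL is interleaved with 6 other protein-coding genes, among them VPREB1, part of the surrogate light chain of early B cells, and PRAME, a cancer testis antigen.

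Each list held 250000 peaks, so a number of peaks was a share of a fixed total. The sources used here do not give read depth, so its effect on precision was unknown. The labels number the libraries without saying that they came from separate cultures, so p-values measure the spread between these libraries, which may be technical. Knockout 1 stood apart: peaks covered 13.9% of chromosomes 1 to 22 and X in it and 19.3% in knockout 2, against 22.8% and 22.4% in the controls. Its list also ended at a higher −log10 p (1.49, with 1.35 in knockout 2, against 1.25 and 1.27 in the controls). The part that list length and the ending strength had in the differences below was tested only through the alternative settings.

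The loci fell into a densely and a sparsely covered set, and this split was the same in all 4 libraries. IGL was the most covered, with 23.7% and 40.6% of its length under peaks in the knockouts and 49.9% and 45.9% in the controls. TRB had 16.6% and 29.8% in the knockouts, against 38.1% and 37.7% in the controls. For the third dense locus, TRG, the values were 23.5% and 30.8% in the knockouts and 44.0% and 27.4% in the controls. TRA/TRD had 10.7% and 6.53% in the knockouts, against 9.87% and 5.00% in the controls. IGH followed with 3.55% and 2.93% in the knockouts and 6.32% and 3.85% in the controls. IGK was lowest on average, with 2.52% and 3.51% in the knockouts and 4.91% and 2.83% in the controls. In every library the least covered of IGL, TRB and TRG lay above the most covered of the other 3. Over the 4 libraries IGL averaged 40% ± 11.6, TRG 31.4% ± 8.91, TRB 30.5% ± 10.1, TRA/TRD 8.04% ± 2.72, IGH 4.16% ± 1.49 and IGK 3.45% ± 1.06 (SD, n = 4, both groups). TRG and TRB did not differ beyond that spread, nor did IGH and IGK.

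**Figure D1:**
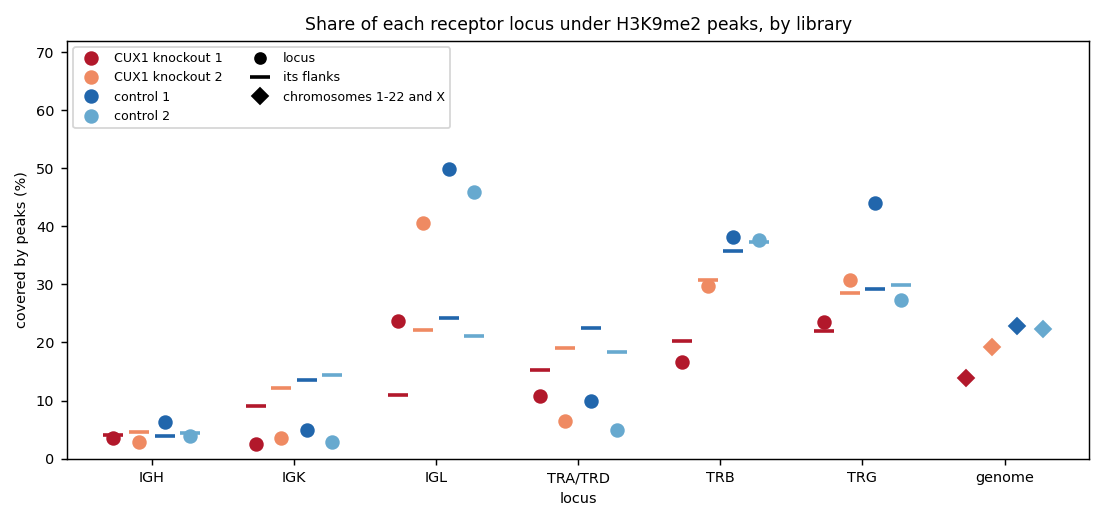
Percent of each locus under H3K9me2 peaks (circles), of its 1-Mb flanks (dashes) and of chromosomes 1 to 22 and X (diamonds), by library, with the CUX1 knockouts left of the controls. IGL, TRB and TRG lay above IGH, IGK and TRA/TRD in every library, and IGL stood above its flanks in all 4.

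Against the 3009 windows of 1 Mb that made up the rest of these chromosomes, IGL ranked near the top. It was more covered than 2897 and 3008 of them in the knockouts, and than all 3009 in both controls. IGH lay above 13.1% to 16.1% of the windows, IGK above 10.3% to 15.4% and TRA/TRD above 16.1% to 30.9%. TRG lay above 95.8% and 82.6% in the knockouts and 98.8% and 54% in the controls, and TRB above 54% and 78.5% in the knockouts and 86.5% and 88% in the controls. The median window was 15.7% and 22.7% covered in the knockouts, against 25.4% and 26.2% in the controls. TRG (140 kb) and TRB (530 kb) are shorter than these windows, so their ranks compare unlike lengths.

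Set against the flanks, 1 Mb on each side, IGL was more covered in all 4 libraries, by 12.7 and 18.4 percentage points in the knockouts and 25.7 and 24.7 in the controls (mean 20.4, two-sided exact sign-flip permutation p = 0.125, the smallest that 4 libraries allow). IGK was less covered than the mean of its flanks in all 4, by differences of -6.51 and -8.61 points in the knockouts and -8.73 and -11.6 in the controls (mean -8.85, exact p = 0.125). This came from the left flank (18.1% and 24.2% in the knockouts, 27.3% and 28.8% in the controls), since the right flank held no peak in any list. With flanks of 2 Mb, which reach further into a stretch without peaks, the mean IGK difference was -2.73 points, and without stretches of at least 100 kb that held no peak it was -17.8. TRA/TRD was also less covered in all 4, with -4.56 and -12.5 points in the knockouts and -12.6 and -13.3 in the controls (exact p = 0.125). For IGH, TRB and TRG the sign differed between libraries, with means of -0.0623, -0.531 and 3.99 points. The TRG mean was 0.396 without control 1 and 6.16 without control 2. The TRB mean was -5.12 points with flanks of 500 kb and -2.20 at equal covered length. In both settings TRB lay below its flanks in all 4 libraries (exact p = 0.125 each). Without stretches of at least 100 kb that held no peak the TRB mean was -4.38, in a setting added once the data had been seen. For TRB that setting took 220 kb from the flanks and 0 from the block, so it could only lower the difference. IGH reaches close to the chromosome end, so its right flank was only 59.5 kb long and held no peak, and its flank value came from the left side.

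The dense coverage of IGL did not begin or end with the receptor array. The 450 kb before the block were 21.2% and 42.3% covered in the knockouts, against 45.9% and 39.4% in the controls. The 350 kb from 900 kb after the block's start were 22.1% and 45.5% covered in the knockouts and 52.5% and 47.1% in the controls. These values are near those of IGL itself, and the flanks differed from it in their outer stretches. With flanks of 500 kb the mean IGL difference was 7.12 points in place of 20.4. On the low side, chr22:21465872-21917091 (451 kb) held no peak in any list. On the high side coverage dropped at 23630000, where the 300 kb before were 22.8% and 47.1% covered in the knockouts and 52.1% and 45.2% in the controls. The 300 kb after were 1.27% and 1.60% covered in the knockouts and 4.78% and 3.61% in the controls. The step was located after the values were seen and was not tested. In RefSeq order the genes next to the IGL array on that side are RSPH14, GNAZ, RAB36 and BCR. BCR is the gene fused to ABL1 in chronic myeloid leukemia, and K562 is known to carry that fusion in extra copies. Copy number was not analysed here, and its part in these values was not tested.

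**Figure D2:**
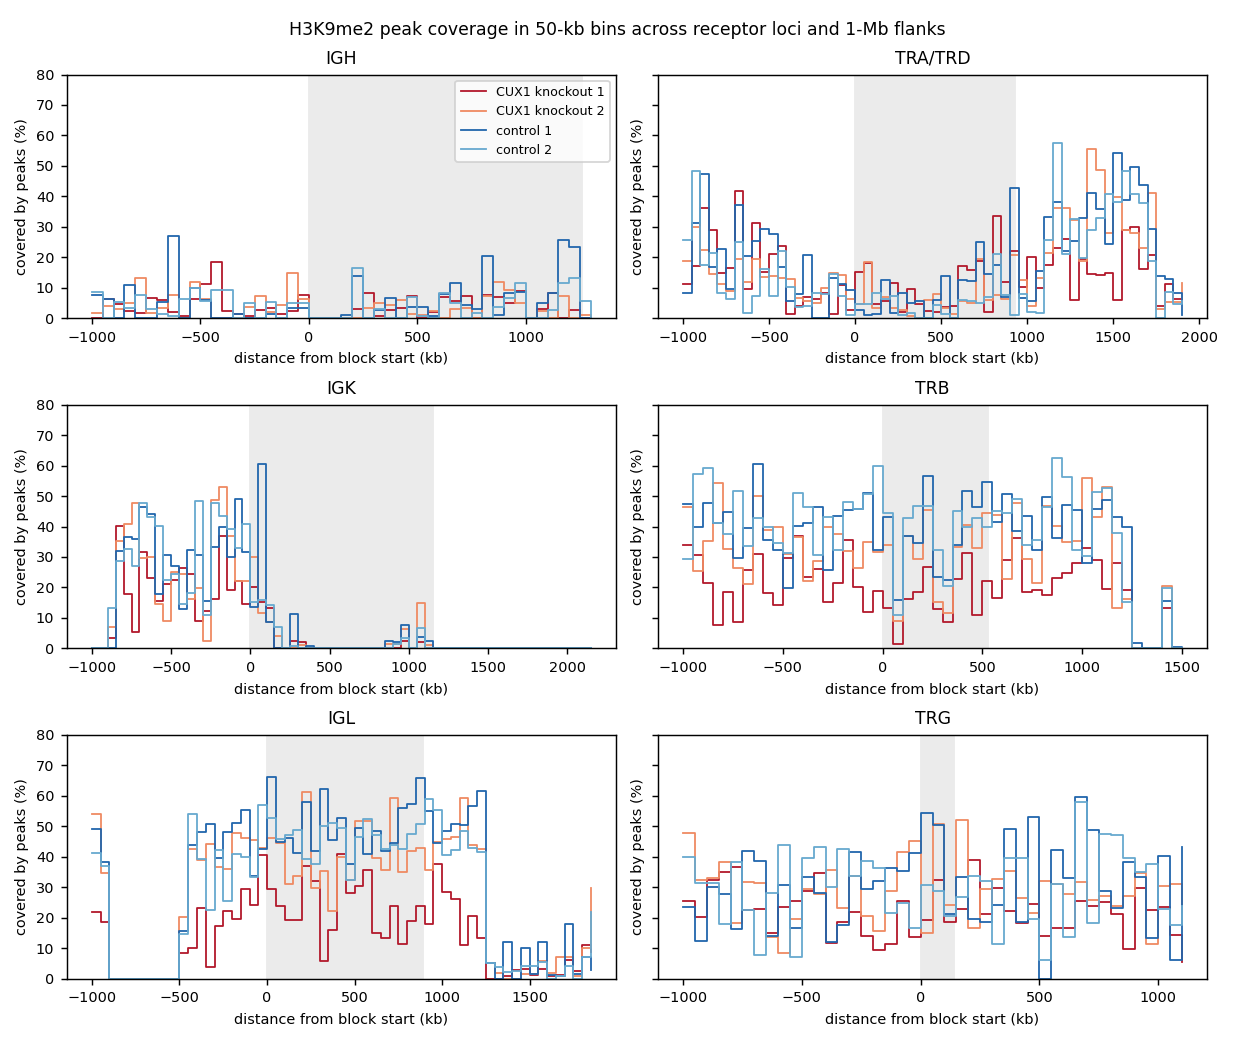
Percent covered by peaks in 50-kb bins, by distance from the start of each block in kb (grey: the block), for the CUX1 knockouts (red, orange) and the controls (dark and light blue). IGL sits inside a plateau that ends 1250 kb after its start, IGK is covered mostly near its start and less near its end, and IGH is low in most bins, with control 1 at 25.7% in its highest.

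IGL peaks were wide and had low fold enrichment. Their median width was 2341 and 2587 bp in the knockouts, against 2826 and 2898 bp in the controls, and each library's median was above that of its whole list (1324 and 1900 bp in the knockouts, 2335 and 2275 bp in the controls). Width was not particular to IGL. TRB medians were 1299 and 3087 bp in the knockouts and 2999 and 3419 bp in the controls, wider than IGL except in knockout 1. TRG was wider than IGL only in control 1 (4040 bp). The authors' fold enrichment had an IGL median of 1.75 and 1.55 in the knockouts and 1.59 and 1.49 in the controls. The list medians were 1.95 and 1.77 in the knockouts and 1.77 and 1.72 in the controls, above IGL in each library. The authors' −log10 p went the other way, with IGL medians of 1.69 and 1.72 in the knockouts and 1.58 and 1.62 in the controls. The list medians of −log10 p were 1.67 and 1.53 in the knockouts and 1.46 and 1.47 in the controls, so IGL peaks had lower fold and higher −log10 p than the list in all 4 libraries.

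**Figure D3:**
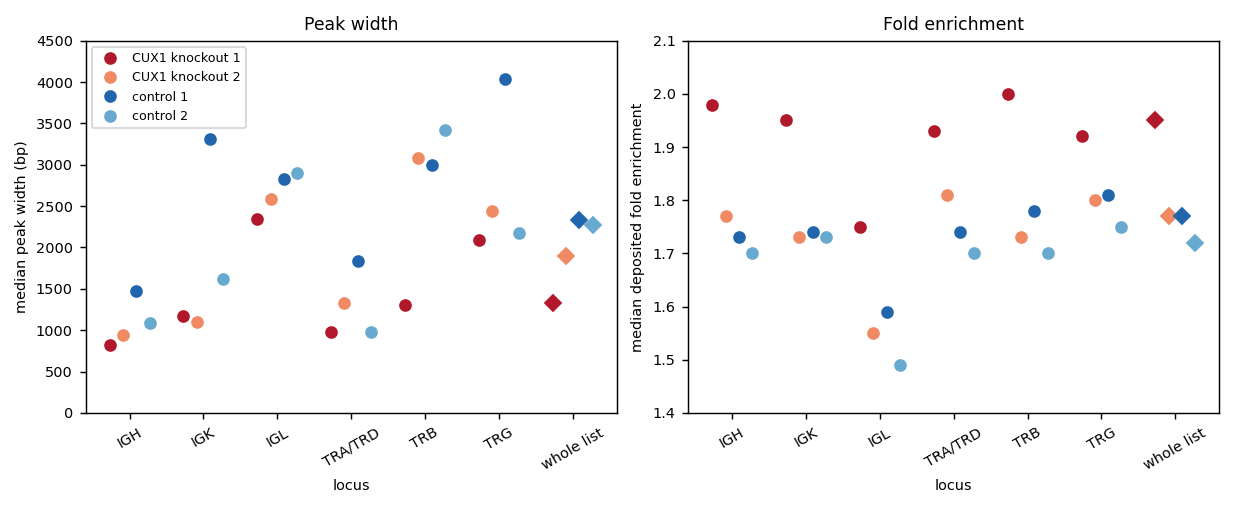
Median width (left, bp) and median fold enrichment as deposited (right, axis from 1.4) of the peaks in each locus and in the whole list (diamonds), with the CUX1 knockouts left of the controls. IGL peaks lie below the list in fold and above it in width in every library. In width, TRB peaks lie above IGL peaks except in knockout 1.

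The strongest IGL peak lay at the same place in all 4 lists. It was called at chr22:23062542-23063278 in knockout 1 and chr22:23062540-23064077 in knockout 2, and at chr22:23062539-23063438 in control 1 and chr22:23062284-23063565 in control 2. Its −log10 p was 3.91 and 7.73 in the knockouts and 3.13 and 7.38 in the controls, and its rank in the list 40 and 30 in the knockouts, against 216 and 30 in the controls. The values split by replicate number and not by group. IGL was the only locus of the 6 with peaks at a q of 0.05, with 0 and 2 in the knockouts and 0 and 1 in the controls. Of the 250000 peaks in each whole list, 9 and 460 reached that q in the knockouts and 17 and 312 in the controls. Nearly all listed peaks, in the loci and elsewhere, thus fell short of it. In TRA/TRD the strongest peak of both knockouts was at chr14:22806005-22806680 in knockout 1 and chr14:22805533-22806431 in knockout 2. Both controls had a peak there too, each the third strongest of its TRA/TRD peaks. By −log10 p, the strongest IGH, IGK and TRB peaks of the 4 lists were found in control 1, and 0 of the other libraries had a peak at that place in IGH. The lead was small in IGH (2.47, against 2.46 in knockout 2) and TRB (2.96, against 2.92 in control 2). By −log10 q the highest value was in knockout 2 in IGH (0.283, against 0.14 in control 1) and IGK (0.158, against 0.0659). In TRB it was in control 2 (0.522, against 0.317 in control 1).

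The widest IGL peak was 7.53 kb (chr22:23080841-23088373) and 9.86 kb (chr22:22414638-22424500) in the knockouts, against 17.9 kb (chr22:22609531-22627426) and 13.6 kb (chr22:22955345-22968923) in the controls. Peaks of at least 5 kb held 29.7 and 116 kb of IGL in the knockouts and 205 and 142 kb in the controls. In TRB they held 5.94 and 40 kb in the knockouts, against 74.7 and 59.3 kb in the controls. As a share of the block, these peaks held 3.34% and 13% of IGL in the knockouts and 23% and 16% in the controls. For TRG the shares were 0% and 6.18% in the knockouts and 18.6% and 12.1% in the controls, and for TRB 1.12% and 7.55% in the knockouts and 14.1% and 11.2% in the controls. In IGH they held 0 kb in both knockouts and 24.6 and 7.51 kb in the controls. The widest IGH peak was 2.81 and 3.35 kb in the knockouts, against 9.62 and 7.51 kb in the controls. What peaks of at least 5 kb held outside the loci was not computed. The median width of the whole list was also lower in the knockouts (1324 and 1900 bp) than in the controls (2335 and 2275 bp).

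Inside IGK and IGH long stretches were empty. Most IGK coverage lay in the first 200 kb, the end where the constant region and J segments stand in RefSeq order. That end held 84.2% and 67.3% of the covered bases in the knockouts and 73.2% and 80.7% in the controls. The last 300 kb held 8.02% and 31.3% in the knockouts, against 16.1% and 18% in the controls. The stretch chr2:89512349-90021893 (510 kb) held no peak in any list, and stretches of at least 100 kb without a peak made up 788 kb of the 1150 kb block. With these left out of the denominator, a setting added once the data had been seen, IGK was 8.02% and 11.2% covered in the knockouts, against 15.6% and 8.99% in the controls. In IGH the longest such stretch in the block, chr14:106030000-106224863 (195 kb), was at the end where the constant regions stand. Whether these stretches can be mapped in hg19 was not tested, since no genome of that build was used here.

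TRB lay below its left flank in all 4 libraries, which was 22.4% and 34.5% covered in the knockouts, against 40.5% and 43.3% in the controls. The right flank was 18.2% and 27.1% covered in the knockouts and 31.2% and 31.3% in the controls. The flanks held 220 kb in peak-free stretches of at least 100 kb. Inside the TRB block the longest stretch without a peak in any list was chr7:142048024-142098613 (50.6 kb). TRA/TRD was low over most of its block, and its right flank was 15.2% and 24.5% covered in the knockouts and 26.9% and 23.4% in the controls. Around TRG, the flanks were 22% and 28.6% covered in the knockouts, against 29.3% and 29.9% in the controls. Control 1 accounted for the highest TRG value, 44.0%, while control 2 was below knockout 2.

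Peaks found at the same place in every library were more common in IGL, TRB and TRG than in the whole lists. They were rare in IGH, IGK and TRA/TRD. In IGL, 63.5% and 40.8% of the knockout peaks and 43.7% and 46.9% of the control peaks overlapped a peak in all other 3 lists by at least 1 bp. In TRB the shares were 49.0% and 48.1% in the knockouts and 35.6% and 45.8% in the controls, and in TRG they ran between 25.0% and 33.3%. The whole lists had 19.4% and 21.2% in the knockouts, against 22.3% and 22.2% in the controls. In IGH, 1 peak of 143 was so shared, in IGK 1 of 73, and in TRA/TRD 6 of 185. Wider coverage makes overlap easier, and the part of coverage in these shares was not tested.

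**Figure D4:**
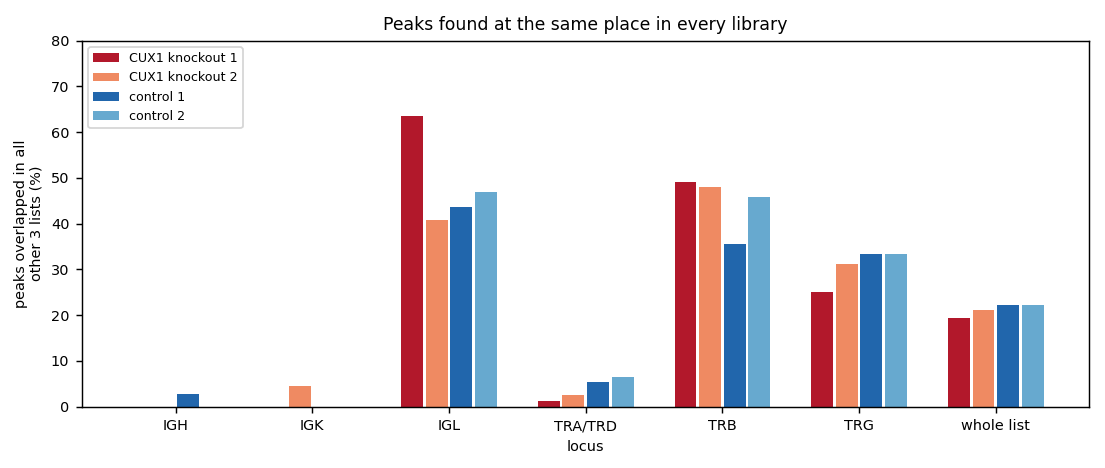
Percent of the peaks in each locus, and in the whole list, that overlap a peak in all other 3 lists, with the CUX1 knockouts left of the controls. IGL, TRB and TRG lie above the whole list in every library, and IGH, IGK and TRA/TRD lie below it.

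Stretches covered in all 4 libraries summed to 65.7 kb in IGL (7.38% of the block), 23.1 kb in TRB and 2.99 kb in TRG. They summed to 0.427 kb in TRA/TRD and to 0 in IGH and IGK. The longest of them were chr22:22522452-22526063 in IGL (3.61 kb), chr7:142377703-142380883 in TRB (3.18 kb) and chr7:38345289-38346442 in TRG (1.15 kb). The Jaccard index (the covered bases that a pair of libraries has in common, divided by those covered in at least 1 of them) was 0.273 for the knockout pair and 0.434 for the control pair in IGL. In TRB it was 0.220 for the knockouts and 0.390 for the controls, and in IGH 0.0604 and 0.0633. Over these chromosomes it was 0.157 for the knockouts and 0.230 for the controls. Across groups, knockout 2 with controls 1 and 2 had 0.404 and 0.419 in IGL and 0.342 and 0.366 in TRB. Knockout 1 with them had 0.254 and 0.225 in IGL and 0.194 and 0.197 in TRB. In IGL and TRB the low values were thus those of pairs with knockout 1.

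Between knockout and control, IGL, TRB and IGH were less covered in both knockouts than in either control, while IGK, TRA/TRD and TRG overlapped. That is 3 of 6 blocks. Of all 2810 features (1-Mb windows, flanks and blocks), 63.9% lay below both controls in both knockouts and 1.42% above. The blocks ran from 140 kb (TRG) to 1260 kb (IGH), so they were not all of the windows' length. The ratio of the knockout to the control mean was 0.612 in TRB, 0.637 in IGH, 0.671 in IGL, 0.761 in TRG and 0.780 in IGK, against 0.735 over all these chromosomes. The TRA/TRD mean was 16.2% higher in the knockouts. TRB covered 23.2% ± 9.35 in the knockouts and 37.9% ± 0.245 in the controls (SD, n = 2 each), a difference of -14.7 points with a standard error of 6.31 (limma adjusted p = 0.213). IGL covered 32.2% ± 12.0 in the knockouts and 47.9% ± 2.81 in the controls, a difference of -15.8 points with a standard error of 13.6 (limma adjusted p = 0.421). The IGH difference was -1.84 points (adjusted p = 0.368) and the TRA/TRD difference 1.2 points (adjusted p = 0.673). TRG differed by -8.55 points (adjusted p = 0.393) and IGK by -0.853 points (adjusted p = 0.606).

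In that limma fit, which held the 6 blocks, their flanks and all other 1-Mb windows, 0 of the 6 blocks passed an adjusted p of 0.05. At an unadjusted limma p of 0.05, 1 block was lower, TRB, and 0 were higher, where 16.9% of all features were lower and 0.285% higher. Of all 2810 features, 4.16% were called lower in the knockouts and 0.0712% higher. Their median difference was -6.35 points, against -5.20 over the 6 blocks. The two-sided exact permutation p of each block was 0.333 at the least, the smallest that 2 libraries against 2 allow. Without knockout 2, where knockout 1 alone is assumed to vary like the controls, IGL (-24.2 points), TRB (-21.3) and TRG (-12.2) were called lower, beside 61.5% of all features in that fit. Without knockout 1 only TRB was called, with a difference of -8.09 points (limma adjusted p = 0.0391), beside 12.8% of all features. Without control 1 and without control 2, 0 blocks were called lower, beside 3.24% and 3.81% of all features. The TRA/TRD difference was -0.903 points without knockout 1 and -1.23 without control 2, and the IGK difference 0.190 without control 1. The IGH difference ran from -3.08 to -0.609 points with each library left out. With 1 limit of −log10 p for all lists (1.49), IGH, IGK and TRG were higher in the knockouts, by 1.2, 0.902 and 8.96 points, and none of these was called. The median over all features was then 3.37 points higher in the knockouts, while IGL and TRB were lower by -5.07 and -4.46 points. At equal covered length IGH and TRG were higher in the knockouts, and after quantile normalization IGK and TRG were. TRA/TRD was higher in the knockouts by 6.12 points with 1 limit of −log10 p, and by 5.44 at equal covered length. With 1 limit of −log10 q it was higher by 4.03 points. Both knockouts lay above both controls in each of these settings, and TRA/TRD was called in none (limma adjusted p = 0.111, 0.232 and 0.816). How often all features lay so in these settings was not computed.

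Relative to the flanks, in percentage points, the knockout and control values did not overlap in 5 of 6 loci. A gap in points shrinks when block and flanks fall by the same factor. Peaks covered less of chromosomes 1 to 22 and X in the knockouts (13.9% and 19.3%) than in the controls (22.8% and 22.4%). The part of this in the gaps was not tested, and ratios of block to flanks were not compared between the groups. Of 2745 windows of 1 Mb, each set against the mean of its neighbours on both sides, 38.2% did not overlap, 20.3% with the knockouts lower and 17.9% with them higher. The difference between block and flanks was lower in the knockouts by -9.64 points in IGL, -3.68 in TRB and -2.07 in IGH, and higher by 4.42 points in TRA/TRD and 2.60 in IGK (two-sided exact permutation p = 0.333 for each). With 1 library left out the TRA/TRD difference was 0.445 points (without knockout 1) or 8.39 (without knockout 2). The IGK difference was 1.55 without knockout 1, 4.02 without control 1 and 1.17 without control 2, and the IGH difference -0.630 without control 1 and -3.52 without control 2. TRB was -2.31 without knockout 1. In TRG it overlapped, with 1.51 and 2.22 points in the knockouts and 14.8 and -2.54 in the controls. Block coverage was also divided by each library's coverage of chromosomes 1 to 22 and X. By that ratio the groups were apart only in TRB (1.19 and 1.55 in the knockouts, 1.67 and 1.69 in the controls). How often windows elsewhere were apart by that ratio was not computed, so it does not set TRB apart from other sequence. In IGL the ratio was 1.70 and 2.11 in the knockouts and 2.19 and 2.06 in the controls.

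At 100 kb, 43 of the 49 windows in the loci reached the mean coverage of 1% needed for the test, and 0 of the 43 passed limma's adjusted p of 0.05. Over all 27547 windows 0.0980% were called, all lower in the knockouts. Without knockout 2, 7 of 42 windows in the loci were called, beside 8.28% of all windows, and without control 2, 1 of 42 was, beside 2.09%. Without knockout 1 and without control 1, 0 were called, beside 0.0327% and 0.928%. At an unadjusted p of 0.05, 5 of the 43 were lower and 0 higher, where 14.3% of all windows were lower and 0.693% higher. Both knockouts lay below both controls in 15 of the 43 windows (34.9%), against 43.3% of all windows, and above both in 2 (4.65%), against 4.98%. By locus, the windows below were 5 of 5 in TRB, 5 of 9 in IGL, 4 of 12 in IGH, 1 of 7 in IGK and 0 in TRA/TRD and TRG. The median difference was -16.1 points in TRB, -15.0 in IGL and 1.17 in TRA/TRD, against -5.93 over all windows.

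The windows with the smallest p in each direction did not pass the threshold. In IGL, chr22:22700001-22800000 was 15.7% and 26.8% covered in the knockouts, against 55.0% and 51.6% in the controls (-32.0 points, limma adjusted p = 0.0963). At the high-coordinate end of IGH, where V segments lie in RefSeq order, chr14:107200001-107300000 was 1.39% and 2.03% covered in the knockouts and 15.4% and 9.88% in the controls (-10.9 points, adjusted p = 0.139). In TRB, chr7:142000001-142100000 was 2.43% and 14.8% covered in the knockouts, against 25.7% and 23.7% in the controls (-16.1 points, adjusted p = 0.265). In each of these 3 windows both knockouts lay below both controls. The smallest p for a higher value was in TRA/TRD, at chr14:22100001-22200000, with 14.4% and 10.5% in the knockouts and 1.73% and 8.01% in the controls (7.57 points, adjusted p = 0.368). Next were chr14:106400001-106500000 in IGH (2.45 points, adjusted p = 0.618) and chr14:22900001-23000000 in TRA/TRD (5.08 points, adjusted p = 0.676), and in the TRA/TRD window the groups overlapped.

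Covered by both controls and neither knockout were 77.2 kb of IGL and 43.3 kb of TRB. Covered by both knockouts and neither control were 16.9 kb of IGL and 4.81 kb of TRB. In TRA/TRD the order was the reverse, with 10.0 kb in both knockouts only and 5.36 kb in both controls only. The same lengths were not computed outside the loci, so they do not set IGL or TRB apart from other sequence. Over chromosomes 1 to 22 and X the controls covered more (22.8% and 22.4%) than the knockouts (13.9% and 19.3%). The longest stretch in both controls only was chr7:142006126-142011868 in TRB (5.74 kb), and the longest in both knockouts only was chr2:89166358-89168548 in IGK (2.19 kb).

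The number of peaks in the 6 loci did not follow the groups, but their width did. Their median width was 1294 and 2011 bp in the knockouts, against 2572 and 2500 bp in the controls, a difference between means of -884 bp (two-sided exact permutation p = 0.333). It was -525 bp without knockout 1 and -1240 bp without knockout 2. Divided by the median width of the whole list, which was also lower in the knockouts, this ratio averaged 1.02 in the knockouts and 1.10 in the controls. IGL had fewer peaks in both knockouts (85 and 125) than in either control (126 and 130), and so did TRB (51 and 52 in the knockouts, 59 in each control). TRA/TRD had more, with 77 and 39 in the knockouts and 38 and 31 in the controls. The groups were barely apart in IGL (125 against 126) and in TRA/TRD (39 against 38). How often windows elsewhere were apart in peak number was not computed. Taking the serial numbers in the peak names as counting every called peak, for which no source was found, IGL had 200 and 183 peaks per Mb in the knockouts and 160 and 167 in the controls. TRB had 160 and 142 per Mb in the knockouts, against 126 and 130 in the controls. By that count, chosen after the data were seen, both loci had more peaks in the knockouts. It was not computed for windows elsewhere either.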

How the data were processed

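H3K9me2 CUT&RUN was measured in 2 CUX1 knockout and 2 control K562 libraries, grouped by their labels. MACS2 2.1.0, deepTools 3.5.1, BWA 0.7.17, SAMtools 1.16.1 and build hg19 are named in the submitters' processing notes, without settings. For each library the authors deposited 1 list of broad peaks. A deposited peak has a score, a fold enrichment (a ratio), a −log10 p and a −log10 q, which served only for description, ranking and filtering.

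Percent covered is the share of a block under at least 1 listed peak. Blocks, flanks and windows were tested by moderated linear models (eBayes, trended) in limma 3.58.1 under R 4.3.3, with a Benjamini-Hochberg adjusted p of 0.05 as threshold, where the mean was at least 1%. Single values had two-sided exact permutation tests. Both fits were first checked on simulated tables holding known changes. Chromosome lengths came from GenomeInfoDb 1.38.1, and other steps ran in Python 3.11.15. The members and lists were chosen with earlier results of these data known. Named windows are those past the threshold, or otherwise the 3 in each direction with the smallest unadjusted p. Named peaks are the widest and strongest per locus and library, and the longest stretches by sharing pattern. Coverage of gene segments and of lymphoid gene lists, and sequences, were not analysed here.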

Additional observations from a re-analysis of the deposited data

How the results depend on the processing

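TRB and IGL were less covered in the knockouts than in the controls under all 12 alternatives, with differences between -21.3 and -1 points in TRB and between -24.2 and -0.102 points in IGL. With 1 limit of −log10 p, the knockout minus control difference turned to 1.2 points in IGH, 0.902 in IGK and 8.96 in TRG. With 1 limit of −log10 q it was 0.440 in IGH and 8.39 in TRG, IGK fell under the minimum mean of 1%, and at equal covered length 1.07 in IGH and 2.88 in TRG. Quantile normalization gave 0.869 in IGK and 2.61 in TRG. TRA/TRD, at 1.2 points in the main setting, rose to 6.12 with 1 limit of −log10 p. It was 4.03 with 1 limit of −log10 q and 5.44 at equal covered length. The cause of these changes was not tested. Leaving out peak-free stretches moved IGK to -2.71 points. Leaving out each library in turn gave -24.2 to -7.28 points in IGL, -21.3 to -8.09 in TRB, -16.9 to -0.235 in TRG, -1.89 to 0.190 in IGK, -3.08 to -0.609 in IGH and -1.23 to 3.63 in TRA/TRD. Without knockout 2 the difference was -24.2 in IGL, -21.3 in TRB and -12.2 in TRG, and without knockout 1 it was -8.09 in TRB. TRA/TRD was -0.903 without knockout 1 and -1.23 without control 2, and IGK was 0.190 without control 1.

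Relative to flanks, IGL was higher and IGK and TRA/TRD lower under all 10 alternatives, with IGL at 7.12 points for flanks of 500 kb. IGH turned to 0.661 for flanks of 500 kb, 0.371 for 2 Mb and 0.647 without peak-free stretches, and ran from -0.890 to 0.452 with each library left out. TRB turned to 0.424 for flanks of 2 Mb and ran from -1.45 to 0.539 with each library left out, but was -5.12 for flanks of 500 kb. Without peak-free stretches, which for TRB lay only in the flanks, it was -4.38. The knockout minus control difference of these values turned to -0.185 in IGK, -1.26 in TRA/TRD and 0.733 in TRG with 1 limit of −log10 q. In TRG it was also 1.78 with 1 limit of −log10 p and 4.41 without control 1, and ran from -12.9 to 4.41 with each library left out. The difference in peak number ran from -3.50 to 11.5 with each library left out and was 89.5 and 75.0 with 1 limit of −log10 p and of −log10 q. Called 100-kb windows in the loci numbered 0 to 7 with each library left out, with 7 without knockout 2 (8.28% of all windows called) and 1 without control 2 (2.09%), and 0 in the other settings.

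The replicate numbers are not stated to pair the libraries, and their deviations correlated weakly (r = 0.0561 over windows). With the replicate block, 0 of the blocks and 0 of the 100-kb windows in the loci were called, while calls over the genome numbered 231 against 119 at 1 Mb and 173 against 27 at 100 kb. Unlisted peaks, unknown depth and 2 libraries a group limit these values. Bases that are N in hg19 could not be removed from the denominators, so that alternative was not run.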
